A study of Mus musculus with 56 samples.

Results

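Antibody-producing cells leave a distinct RNA signature, and 9 genes of it were read here in the front paws of 56 male DBA/1 mice. The genes are Igkc, Ighm, Ighg1, Ighg2b, Jchain, Mzb1, Cd79a, Cd79b and Ms4a1. They were picked by symbol from the 53431 features of the deposited expression table, by a rule that sets no limit on their values, and each was found 1 time. The study is of collagen-induced arthritis (CIA), an autoimmune joint inflammation that follows immunisation with type II collagen, and the purpose of its comparisons was to see what antibodies against TNF and IL-6, alone and together, do in this model. All groups shared strain, sex and tissue, and the sources used here give no age.

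The 4 immunised groups had 13 mice each, were immunised on days 1 and 21, and received antibody from day 21, with 2 injections per week for 5 weeks. The isotype group received a control IgG1 at 30 mg/kg. The anti-TNF group received clone XT3.11 at 30 mg/kg, the anti-IL-6 group received clone MP5-20F3 at 10 mg/kg, and the combination group received both. The no CIA group had 4 mice, with no immunisation and no dose of any antibody, isotype included. Comparisons with it therefore join immunisation and antibody injection. RNA was taken on day 91, so no mouse was being dosed at that time. A whole paw holds skin, muscle, bone with marrow, joint tissue and possibly small lymphoid structures. In such bulk samples fewer cells of a type and less RNA per cell cannot be told apart. Each library is a separate mouse.

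An antibody is built from heavy and light chains. Mature B cells first make IgM and IgD, and after contact with antigen and T cell help they can switch the constant part of the heavy chain to an IgG, IgA or IgE form. B cells carry the antibody at the surface together with the signalling pair CD79A and CD79B, while plasma cells secrete it in large amounts. In CIA, antibodies against type II collagen are a known driver of joint inflammation, and long-lived plasma cells are known to reside in bone marrow.

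Igkc encodes the constant part of the kappa light chain and Ighm that of the IgM heavy chain. Ighg1 and Ighg2b encode the constant parts of 2 IgG heavy chains, which lie close together on chromosome 12 (GRCm38, GENCODE M21) at chr12:113325240-113330523 and chr12:113302965-113307933, both on the minus strand. Such neighbours share stretches of exon sequence, so counting of short reads can split or discard reads between them, and their values carry that uncertainty. The coding exons of the secreted forms show how far this goes. The longest run that Ighg1 and Ighg2b have in common was 37 bases, in exon 1 of each, at chr12:113330298-113330334 in Ighg1. Of all 50-base windows of Ighg1, 0% occurred in Ighg2b. Ighg2b and Ighg2c, a further IgG gene, were closer, with a common run of 78 bases in exon 3 and 5.85% of the 50-base windows of Ighg2b found in Ighg2c. These 2 runs are shown because they mark the longest stretch over which each pair of genes cannot be told apart. Capitals mark the 41 bases of the Ighg2b run (chr12:113306869-113306946) that Ighg3 holds as well.
Ighg1 and Ighg2b: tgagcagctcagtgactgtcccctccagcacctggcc
Ighg2b and Ighg2c: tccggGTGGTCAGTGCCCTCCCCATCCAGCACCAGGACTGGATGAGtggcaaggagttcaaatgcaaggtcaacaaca

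Jchain encodes the joining chain that links IgM and IgA into polymers, and Mzb1 a chaperone-like protein of the endoplasmic reticulum in antibody-secreting cells. Cd79a and Cd79b encode the signalling pair of the B cell receptor, and Ms4a1 encodes CD20, a surface protein of mature B cells that plasma cells lose. RefSeq promoters (GRCm38.p6) were at hand for Jchain and Cd79a. Their upstream bases are printed because these genes lead the 2 branches, secretion and surface receptor, that the data below compare. Each run is the 120 bases just before the outermost annotated start, at chr5:88527898-88528017 on the minus strand for Jchain and chr7:24897261-24897380 on the plus strand for Cd79a.
Jchain: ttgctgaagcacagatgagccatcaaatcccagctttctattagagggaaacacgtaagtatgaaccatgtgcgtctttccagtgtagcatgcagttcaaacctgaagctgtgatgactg
Cd79a: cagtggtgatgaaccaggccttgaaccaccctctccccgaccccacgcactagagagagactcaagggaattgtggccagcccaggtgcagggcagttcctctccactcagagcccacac
The octamer ATGCAAAT, a binding motif of immunoglobulin promoters, was searched on both strands from 250 bases before to 50 after the RefSeq start, as was the core palindrome of the B cell factor EBF1. Neither motif occurred as an exact match in either window. Copies that depart from these letters were not searched, so the absence of EBF1 or octamer sites is not shown. Over 32851 promoters of the same length, 1.74% held the octamer and 0.904% the EBF1 core.

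Levels are in FPKM, which counts fragments per kilobase relative to all mapped fragments, so levels can be set beside each other across genes. Estimated depth ran from 39.85 to 54.65 M fragments (M for mega), and the steps behind this estimate came out whole, within 0.05 of a step, for 75.7% to 81.1% of low values, so counts could not be rebuilt. Differences were tested with limma on log2(FPKM + 1) over the 14700 features with a mean of at least 1 FPKM in any group, with Benjamini-Hochberg adjustment and a threshold of 0.05. Log2 differences on this scale understate the change of low genes. Of the 9 genes 8 were tested. Ms4a1 missed the filter, with a highest group mean of 0.673 FPKM. Mzb1 passed through the anti-TNF and combination groups only, and Ighg1 and Ighg2b passed through the 4 immunised groups and not through no CIA.

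The kappa chain gene was the most abundant member, and its level ranged over 159-fold between mice. Igkc was 16.7, 18.1, 35.3 and 62.8 FPKM in the 4 no CIA libraries. In the isotype group it ran from 7.82 to 291, with a median of 29.1. In the anti-TNF group it ran from 3.87 to 552, with a median of 67.5. The group with anti-IL-6 spanned 9.21 to 165 (median 37.9), and the combination group 6.50 to 614 (median 71.3). Every immunised group therefore held libraries below the lowest and above the highest no CIA library. Over the 52 immunised mice, 20 lay above the no CIA range and 8 below it. The order of medians was combination, anti-TNF, anti-IL-6, isotype and no CIA, and no neighbours in that order differed beyond their spread by limma.

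Ighm behaved more evenly than Igkc. It was 13.4, 21.1, 22.7 and 36.4 FPKM without CIA, and the immunised medians were 23.9 (isotype), 28.0 (anti-TNF), 17.9 (anti-IL-6) and 23.1 (combination). The lowest library had 11.8 FPKM and the highest 165, a 14.1-fold range that rests on a single combination library, since the next highest had 63.99. In anti-TNF replicate 4 Igkc was 3.87 FPKM while Ighm was 23.4, close to the Ighm median of all 56 libraries (23.3).

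**Figure D1:**
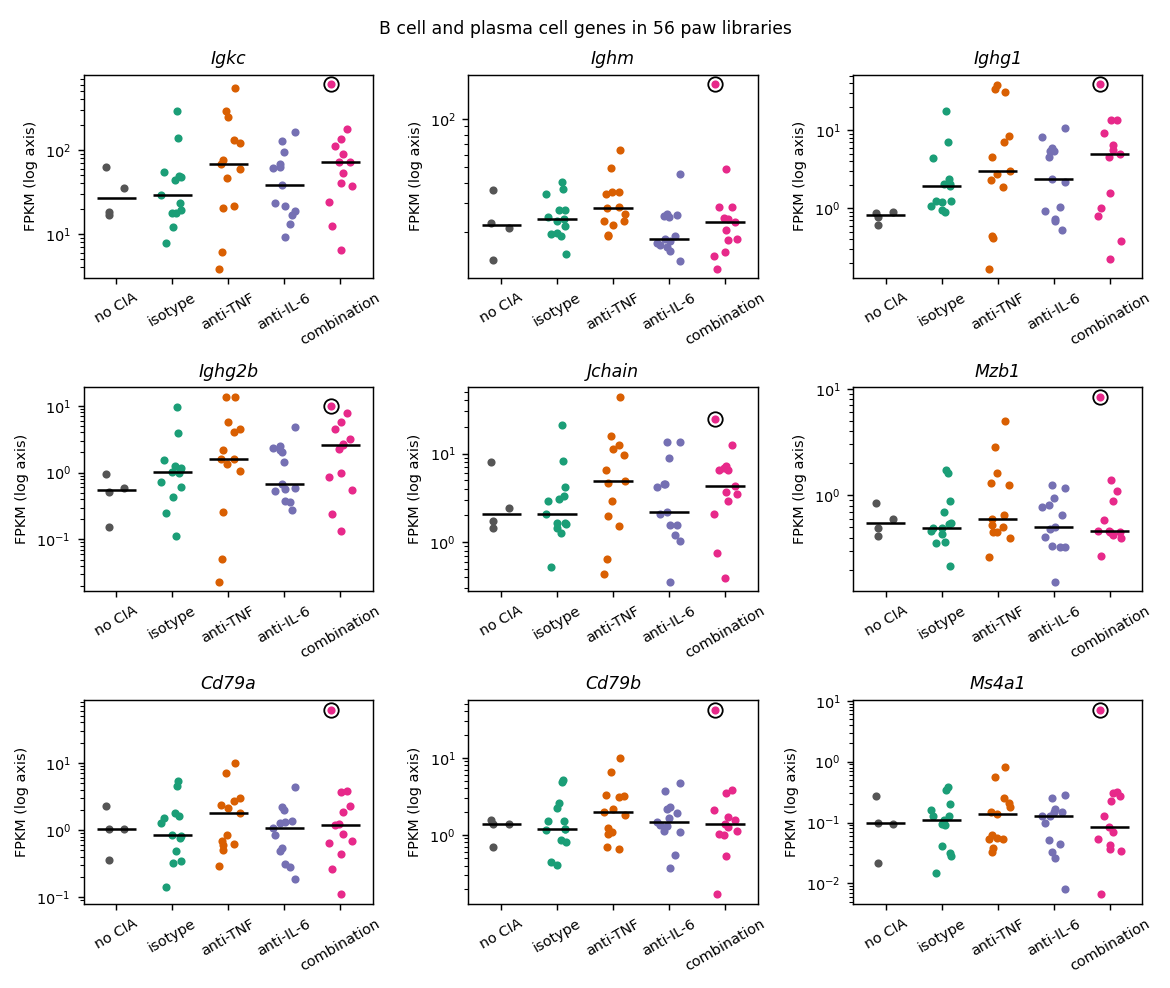
FPKM of the 9 genes (log axes) in each library, by group, with 4 no CIA and 13 libraries in each other group. Points are libraries, black bars are group medians and the open circle marks combination replicate 6, the highest library for 7 of the 9 genes. The groups overlap for every gene.

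The IgG genes were the members with the widest gap between immunised and other mice. Ighg1 was 0.607, 0.766, 0.861 and 0.903 FPKM in the no CIA libraries. The isotype libraries ran from 0.890 to 17.8 (median 1.95), so 12 of 13 lay above every no CIA library. In the anti-TNF group Ighg1 ran from 0.169 to 38.4 (median 3.01), with 10 of 13 above the no CIA range and 3 below it. The anti-IL-6 group spanned 0.527 to 10.7 (median 2.36) and the combination group 0.221 to 39.5 (median 4.90), each with 10 of 13 above the range. The mean of the 4 immunised groups exceeded no CIA by 1.30 ± 0.67 (log2, SE; 95% interval -0.04 to 2.65), which did not pass the test (limma, adjusted p = 0.251).

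Ighg2b followed Ighg1 at a lower level. It was 0.153, 0.517, 0.590 and 0.959 FPKM without CIA, and the immunised medians were 1.02 (isotype), 1.61 (anti-TNF), 0.670 (anti-IL-6) and 2.58 (combination). Of the 52 immunised libraries 33 lay above the no CIA range and 4 below it. Its mean difference was 0.81 ± 0.49 (log2, SE), with an adjusted p of 0.320 by limma. With pseudocounts of 10 and 0.1 it was 0.21 and 1.31. The lowest value, 0.0234 FPKM in anti-TNF replicate 4, and the highest, 13.7 FPKM in anti-TNF replicate 5, came from the same treatment group.

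The secretion genes showed no such gap. Jchain was 1.44, 1.72, 2.42 and 8.04 FPKM without CIA, and the immunised medians were 2.10 (isotype), 4.89 (anti-TNF), 2.21 (anti-IL-6) and 4.25 (combination). Single libraries ran from 0.359 in anti-IL-6 replicate 9 to 43.9 in anti-TNF replicate 1. Among immunised libraries 12 lay above and 10 below the no CIA range. Mzb1 was lower throughout, at 0.411 to 0.837 FPKM without CIA. Its immunised medians lay between 0.457 (combination) and 0.60 (anti-TNF), and its highest values were 8.42 in combination replicate 6 and 5.00 in anti-TNF replicate 1.

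The B cell receptor genes were low in most paws. Cd79a was 0.360, 1.03, 1.04 and 2.29 FPKM without CIA and had immunised medians of 0.841 (isotype), 1.79 (anti-TNF), 1.06 (anti-IL-6) and 1.17 (combination). Cd79b was 0.695, 1.379, 1.402 and 1.547 FPKM without CIA, and its immunised medians lay between 1.20 (isotype) and 1.98 (anti-TNF). Ms4a1 had medians between 0.0855 and 0.139 FPKM in all 5 groups, near the floor of the table. Pax5, a transcription factor that defines the B lineage, was as low, with a median of 0.144 FPKM over the 55 libraries other than combination replicate 6. In combination replicate 6 the same genes reached 62.4 (Cd79a), 42.3 (Cd79b) and 7.18 (Ms4a1) FPKM. Without that library the combination group's highest values were 3.82, 3.77 and 0.316, inside the range of the other groups.

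None of the 8 tested members passed the threshold in any of 12 comparisons. Against no CIA, the background share of all tested features called was 0.156% for isotype, 0.551% for anti-TNF, 0.558% for anti-IL-6, 0.156% for the combination and 0.633% for the mean of the 4 immunised groups. Against isotype it was 0% for anti-TNF, 0.952% for anti-IL-6 and 0% for the combination. It was 0% for the combination against anti-TNF, 0.102% for the combination against anti-IL-6, 0% for anti-IL-6 against anti-TNF, and 0.129% for any difference among the immunised groups. A count of 0 of 8 is near these shares and is no result about the members. Nor did any member separate completely from no CIA, where 1.98% of features did so in the isotype group, 0.823% in the anti-TNF, 2.86% in the anti-IL-6 and 1.5% in the combination group. Among the immunised groups the share of features with no overlap was 0% in each of the 6 pairs.

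Before adjustment, limma gave p below 0.05 for Ighg1 and Ighg2b in anti-TNF minus no CIA (0.0282 and 0.0464) and in the combination minus no CIA (0.0402 and 0.0483). Their log2 differences there were 1.67 ± 0.74 and 1.11 ± 0.55 (SE), and 1.56 ± 0.74 and 1.10 ± 0.55. The remaining case was Ighm in anti-IL-6 minus anti-TNF, at -0.52 ± 0.24 (p = 0.0336). Adjusted p-values of these were 0.216, 0.255, 0.472, 0.472 and 0.976. Ighg1 and Ighg2b passed the filter only through immunised groups, with no CIA means of 0.784 and 0.555 FPKM. Their unadjusted p-values against no CIA are therefore no support for a rise. For comparison, an unadjusted p below 0.05 was reached by 19.1% of all tested features in anti-TNF minus no CIA, 10.5% in the combination minus no CIA and 4.68% in anti-IL-6 minus anti-TNF.

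The intervals show what the antibody comparisons could resolve. For anti-TNF minus isotype the Igkc difference was 0.78 (95% interval -0.44 to 2.00) and the Jchain difference 0.72 (-0.18 to 1.61). For the combination minus isotype they were 0.79 (-0.42 to 2.01) and 0.53 (-0.36 to 1.42). For anti-IL-6 minus isotype they were 0.16 (-1.05 to 1.38) and 0.15 (-0.75 to 1.04). The median over the 8 members was 0.47 for anti-TNF, 0.45 for the combination and 0.01 for anti-IL-6, beside 0.01, -0.01 and 0.03 over all tested features. These 3 comparisons share the isotype libraries.

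**Figure D2:**
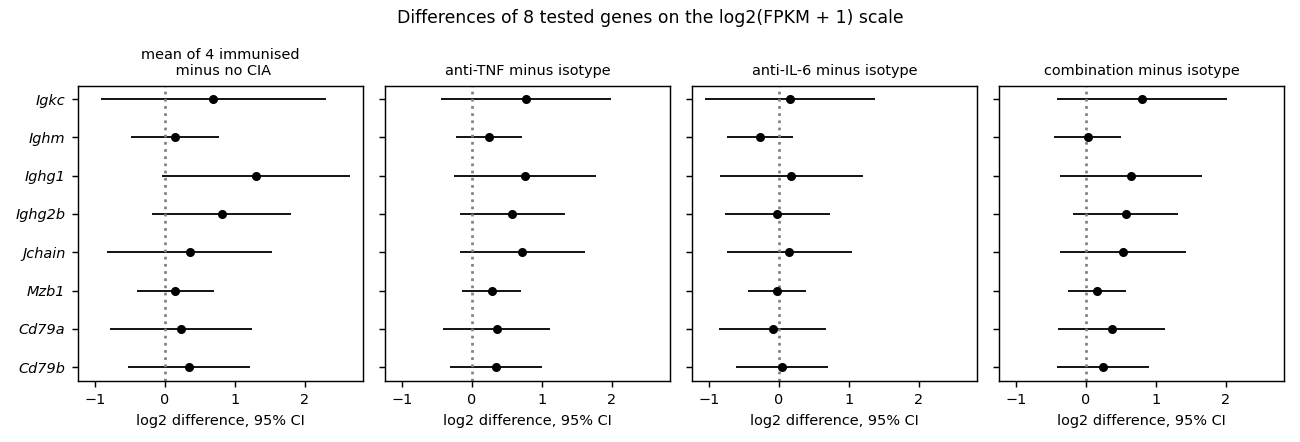
Log2 differences of the 8 tested genes on the log2(FPKM + 1) scale, with 95% confidence intervals from limma, for the mean of the 4 immunised groups minus no CIA and for each antibody group minus isotype. All intervals shown include 0, and the widest are those of Igkc, from -0.92 to 2.30 in the first panel.

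The spread between mice of 1 group was the larger feature. The within-group SD of Igkc was 1.57 on the log2 scale, and 99.8% of tested features had a smaller one. Ighg1 had 1.32 (99.3%), Jchain 1.16 (98.4%), Cd79a 0.99 (96.9%), Ighg2b 0.97 (96.5%) and Cd79b 0.85 (95.4%). Ighm (0.62, 90.9%) and Mzb1 (0.54, 87.9%) varied less, and the median over all tested features was 0.22. Between-group differences held 3.91% (Cd79b) to 12.6% (Ighg2b) of each member's variance, around the median of all tested features, 9.45%.

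Members rose and fell together between mice of the same group. After group means were removed, all 36 pairs of the 9 genes were positively correlated over the 56 libraries (Pearson r from 0.54 to 0.97, median 0.80). Each had a two-sided permutation p of 1e-05, the smallest that 100000 resamples give, and the largest adjusted p was 1e-05. Spearman's rho ran from 0.55 to 0.97 with a largest adjusted p of 6e-05. Leaving out the 2 libraries farthest from the median of the first gene of a pair gave r from 0.49 to 0.97, with all 36 pairs passing. Removing means of the 5 runs of index numbers in the sample titles gave 0.57 to 0.97. The share of all gene pairs that would pass was not computed, so the count of 36 is not shown to be particular to these genes.

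The closest pair was Igkc and Jchain (r = 0.97), followed by Ighg1 and Ighg2b (0.96). Cd79a had r = 0.92 with its partner Cd79b and 0.92 with Mzb1, whose r with Jchain was 0.79. Ighm had 0.88 with Cd79a and 0.66 with Igkc, and Jchain had 0.82 with Cd79a. The 5 nearest to Jchain were Igha (the IgA heavy chain, r = 0.97), the lambda chain genes Iglc1 and Iglc2 (0.87 each), Vpreb3 (an endoplasmic reticulum protein of B lineage cells, 0.85) and Ngp (a granule protein of marrow neutrophil precursors, 0.84). The genes nearest to Cd79a included Pou2af1 (a B cell coactivator, 0.97), Iglc2 (0.95), Ighd (the IgD heavy chain, 0.95) and Vpreb3 (0.92). These r values describe the 56 libraries after group means were removed and were chosen as the highest.

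**Figure D3:**
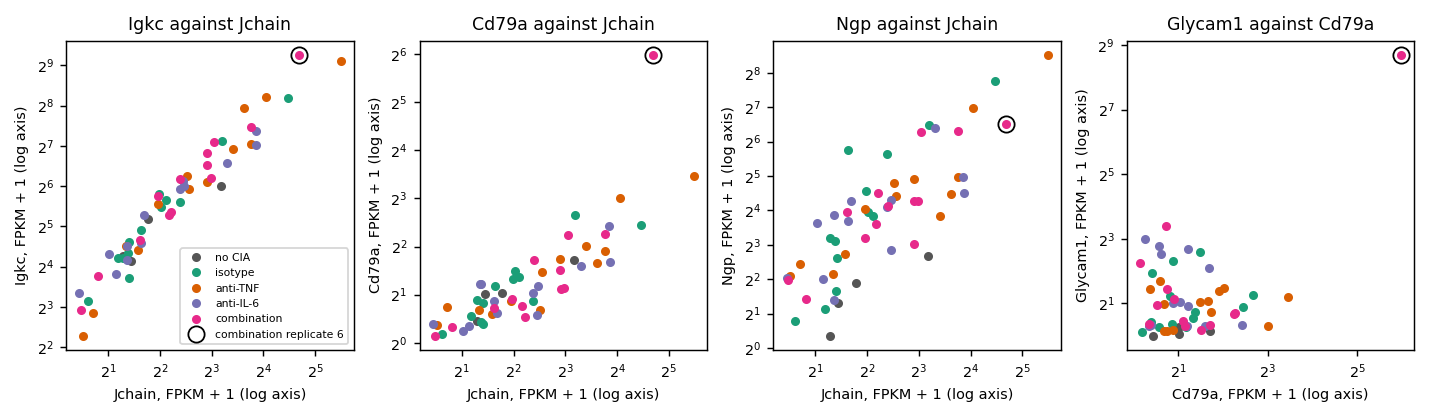
Pairs of genes over 56 libraries as FPKM + 1 on log axes, coloured by group, with combination replicate 6 circled. Igkc and Ngp climb with Jchain across the whole range, while in the panels with Cd79a the circled library (62.4 FPKM of Cd79a, 415 of Glycam1) lies apart from the rest.

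Markers of marrow and blood moved with the members. Over 51 relations of Jchain, Cd79a and Ighm with 17 marker genes, tested like the pairs above, Jchain had r = 0.84 with Ngp, 0.77 with Mpo and 0.76 with Elane (both enzymes of granulocyte precursors) and 0.78 with the haemoglobin gene Hba-a1. Spearman's rho was 0.83, 0.70, 0.69 and 0.75, and each adjusted permutation p was 1.9e-05 for r and for rho. Without the 2 farthest libraries r was 0.81, 0.72, 0.70 and 0.73. Cd79a had r of 0.72, 0.69, 0.68 and 0.71 with the same 4 genes, and Ighm 0.65, 0.66, 0.65 and 0.66. Jchain was close to 0 with the T cell gene Cd3e (0.13, adjusted p = 0.440), with the macrophage gene Cd68 (-0.02, adjusted p = 0.907) and with the muscle actin Acta1 (0.06, adjusted p = 0.712). Weaker relations also passed. Jchain had r = 0.48 with S100a8 of mature neutrophils (rho = 0.44, adjusted permutation p = 0.0010 and 0.0029, 0.43 without the 2 farthest libraries) and 0.38 with Ccl21a (rho = 0.33, adjusted permutation p = 0.0132 and 0.0332, 0.30 without them). Cd79a had 0.41 with S100a8 (rho = 0.46, adjusted permutation p = 0.0019 and 0.00093, 0.44 without them). With Ccl21a Cd79a had 0.35 (adjusted permutation p = 0.0387), which fell to 0.15 without the 2 farthest libraries, and its rho of 0.25 did not pass (adjusted p = 0.136), so this relation rests on those libraries. Ighm passed with Acta1, at r = 0.45 (rho = 0.52, adjusted p = 0.00062 and 0.00016 by permutation, 0.47 without the 2 farthest libraries). With Cd68 Ighm had a negative rho of -0.31 that passed (adjusted permutation p = 0.0348). Its r of -0.22 did not pass (adjusted permutation p = 0.117) and was -0.27 without the 2 farthest libraries.

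The marrow markers also lay higher in immunised mice. The summed FPKM of the 8 granulocyte precursor markers was 3.65 to 13.1 without CIA (median 8.59). It had medians of 33.7 (isotype), 52.0 (anti-TNF), 41.5 (anti-IL-6) and 39.2 (combination), with single libraries from 3.33 to 894. Of these 8 markers 0 passed the test in the mean of the 4 immunised groups minus no CIA and all 8 had positive differences, with a median of 1.19 against 0.03 over all features. The 7 tested erythroid markers had a median of 0.81 with 0 passing. The part of marrow content in the differences and correlations of the members was not tested.

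Libraries with high member values differed in which other genes were high. Anti-TNF replicate 1 had 552 FPKM of Igkc, 43.9 of Jchain and 76.9 of Igha, and also the highest Mpo (64.6) and Hba-a1 (3308). It also had the highest values of the B cell precursor genes Vpreb1 (2.53 FPKM) and Rag1 (0.259). Isotype replicate 12 had 291 FPKM of Igkc and 21.1 of Jchain with 31.9 of Mpo and 2168 of Hba-a1, and anti-TNF replicate 5 had 295 and 15.6 with 16.2 and 694. Members and marrow markers were high together in these 3. Anti-TNF replicate 10 had 246 FPKM of Igkc and 38.4 of Ighg1 with only 3.32 of Mpo and 398 of Hba-a1. Its Ighg1 made up 43.6% of all heavy-chain FPKM, the highest share among the 56 libraries.

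Combination replicate 6 was highest of all libraries for Igkc (614), Ighm (165), Ighg1 (39.5), Mzb1, Cd79a, Cd79b and Ms4a1, while its Jchain (24.8) and Ighg2b (9.94) were below those of anti-TNF replicate 1 (43.9 and 13.7). Genes of naive and follicular B cells stood out, with Ighd at 64.2 FPKM against 8.02 in the next library, the IgM receptor Fcmr at 19.6 against 1.34, Fcer2a (CD23) at 19.9 against 1.21 and Cr2 (CD21) at 2.92 against 0.164. Glycam1, a product of lymph node high endothelial venules, was 415 FPKM against 9.58, and the lymphoid chemokine gene Ccl19 64.1 against 19.1. Of the same marker list, Chst4 was 2.96 against 0.584 and Fut7 3.08 against 1.25. Ccl21a (301 against 260) and Cxcl13 (49.4 against 45.5) were only slightly above the next library. Madcam1 (0.365) was below its value in combination replicate 11 (0.474). Marco, a scavenger receptor of certain lymph node and spleen macrophages that was chosen after its value was seen, was 42.4 against 0.643. The 7 lymph node markers summed to 835 FPKM there and to 60.8 to 282 in the other 55 libraries. Marrow markers were high there too, with 89.7 FPKM of Ngp (rank 4 of 56) and 9.06 of Mpo (rank 8), and the granulocyte precursor markers summed to 197 and the erythroid markers to 1150. Its skeletal muscle markers summed to 31917, the highest of all libraries. The parts of lymphoid tissue, marrow and muscle in these values were not tested. It was 1 of 56 libraries, and leaving it out changed no call.

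**Figure D4:**
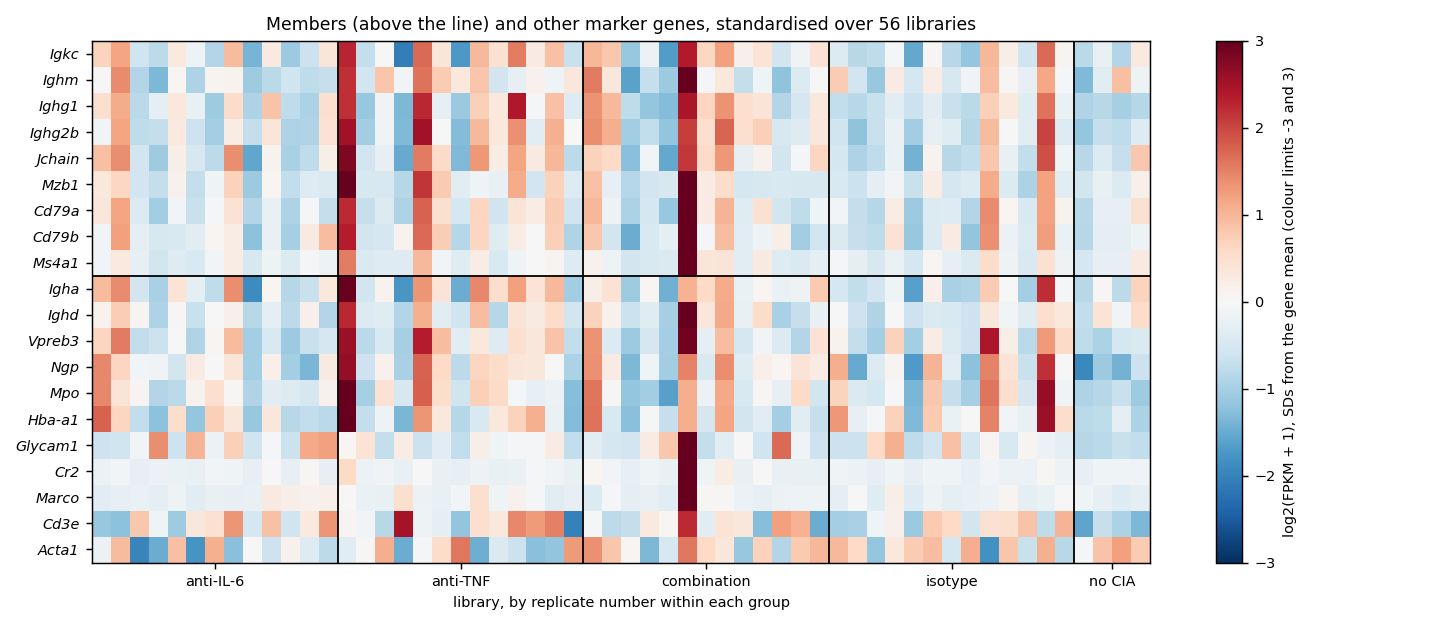
Log2(FPKM + 1) of the 9 genes (above the line) and 11 marker genes in each library, as SDs from the gene's mean over 56 libraries, with colours ending 3 SDs either side of it. Anti-TNF replicate 1 is dark for members, Ngp, Mpo and Hba-a1, and combination replicate 6 for members, Ighd, Glycam1, Cr2 and Marco.

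At the low end, anti-TNF replicate 4, anti-IL-6 replicate 9, combination replicates 3 and 5 and isotype replicate 5 each were among the 5 lowest of 56 libraries for 5 of the 9 members. In anti-TNF replicate 4 the members split, since Igkc (3.87), Ighg1 (0.169) and Ighg2b (0.0234) were the lowest of all while Ighm and Cd79b (1.98) lay in mid range. Within the anti-IL-6 group, replicate 2 was highest for Igkc (165), Ighm (45.5), Ighg1 (10.7), Ighg2b (4.84), Cd79a (4.40) and Cd79b (4.74). This is mouse 20, whose number lies among those of the anti-TNF mice. Mouse 2, labelled anti-TNF, lies among those of the anti-IL-6 mice. Both were kept as labelled, and leaving both out changed no call.

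The makeup of the heavy chains was read as each gene's share of the summed FPKM of the 8 heavy-chain constant genes. Ighm held the largest median share in every group. It was 72.4% without CIA, 72.7% in isotype, 63.7% in anti-TNF, 64.1% in anti-IL-6 and 56.4% in combination libraries. Ighm was not the largest in anti-TNF replicate 1 (31.7%, Igha 38.2%) or replicate 10 (24.9%, Ighg1 43.6%). Its highest share, 94.4%, was in anti-TNF replicate 4, which had the lowest Igkc (3.87 FPKM). The lowest Ighm of all libraries was 11.8 FPKM, against 0.472 for Igha and 0.169 for Ighg1. Shares therefore follow the Ighm level where the other genes are low, and the source of that Ighm was not tested. Igha had medians of 13.7% to 17.6% in all 5 groups. The 4 IgG genes together held 2.85% to 6.67% without CIA. In immunised groups their median was 9.93% (isotype, range 5.01% to 27.1%), 11.4% (anti-TNF, 1.24% to 52.8%), 15.7% (anti-IL-6, 3.48% to 30.7%) and 19.0% (combination, 2.24% to 35.2%). All 4 immunised groups thus had a higher median IgG share than no CIA with overlapping ranges, and no test was run on shares. The IgE gene Ighe was at 0 in all 4 no CIA libraries and in 23 of the 56, with a highest value of 0.740 FPKM. Kappa held a median of 93.1% to 95.03% of light-chain FPKM in every group, with the lowest value, 73.7%, in anti-TNF replicate 4.

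**Figure D5:**
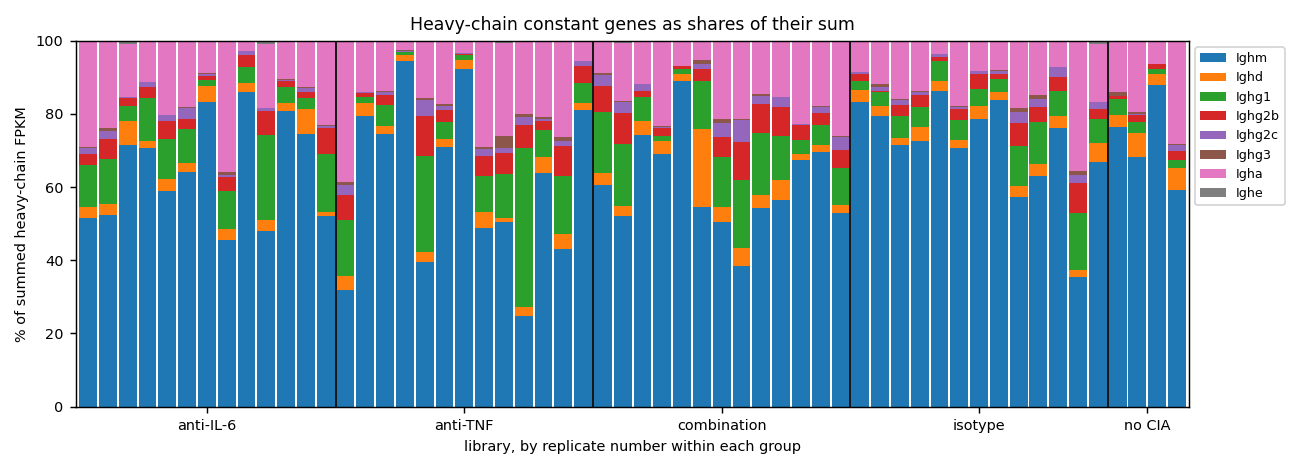
Share (%) of each heavy-chain constant gene in the summed FPKM of the 8 genes, 1 bar per library, by group. Ighm fills most of each bar in most libraries, and the IgG share reaches 52.8% in anti-TNF replicate 10 against at most 6.67% without CIA.

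Variable segments were read for how their signal was spread. The table held 185 Ighv and 160 Igkv segments, read here only as counts and shares, since rearranged and mutated segments map unevenly. Summed Ighv signal was 1.56 to 10.6 FPKM without CIA and had medians of 4.11 (isotype), 7.76 (anti-TNF), 7.06 (anti-IL-6) and 11.7 (combination). The leading segment held 10.4% of this in anti-TNF replicate 1 (Ighv2-9, 7.66 of 73.96 FPKM), 12.1% in anti-TNF replicate 10 and 10.8% in combination replicate 6. In these 3 libraries 21, 6 and 23 Ighv segments reached 1 FPKM. Such counts depend on the summed signal, here 73.96, 26.3 and 64.1 FPKM, so they do not show how many antibody genes contributed. Ighv2-9 led in all 3 and also in libraries of every group. The highest share of a leading segment among all libraries, 31.6%, came from anti-TNF replicate 4, where the whole Ighv signal was only 1.18 FPKM.

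Gene lists of the lineage were read in the contrast with the most mice. The constant, surface and plasma cell lists include the tested members, so they are not separate from the results above. Ebf1 is counted in both the surface and the precursor list. In the mean of the 4 immunised groups minus no CIA, 0 of 10 tested immunoglobulin constant genes, 0 of 13 B cell surface genes, 0 of 12 plasma cell genes, 0 of 4 B cell precursor genes and 0 of 17 survival and homing genes passed (limma), beside 0.633% of all tested features, so these counts are no result about the lineage. Unadjusted p below 0.05 was reached by 0, 2, 3, 2 and 9 of them, beside 21.0% of all tested features. Medians were 0.49, 0.13, 0.17, 0.45 and 0.61, beside 0.03 over all features. Among survival and homing genes the smallest p-values were those of Il6st (the shared receptor chain of the IL-6 family, 0.52 ± 0.18), Ccl21a (a lymphoid chemokine, 0.82 ± 0.30), Cxcr4 (the marrow-homing receptor, 1.05 ± 0.40) and Cd40 (0.61 ± 0.23), with adjusted p of 0.149 to 0.162. Among B cell surface genes the smallest p-values were those of Ebf1 (0.40 ± 0.13) and Cd72 (0.91 ± 0.29), with adjusted p of 0.130 and 0.134. Among plasma cell genes they were Ell2 (0.28 ± 0.11), Fkbp11 (0.95 ± 0.40) and Txndc5 (0.54 ± 0.24), with adjusted p of 0.169 to 0.202. Ebf1, Fkbp11, Txndc5 and Cxcr4 are also made by other cells of a paw.

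Of the lists of other cells, the T cell list (1 of 9 passing, median 0.55) had the only passing gene of this contrast, Thy1 (0.88 ± 0.22, adjusted p = 0.0467 by limma), which fibroblasts and nerves also make. The neutrophil list had 0 of 8 passing with a median of 2.14, the monocyte and macrophage list 0 of 8 with 0.90 and the lymph node list 0 of 4 with 0.97. The bone and cartilage list had 0 of 7 with 1.94, the skeletal muscle list 0 of 6 with -0.86 and the epidermis list 0 of 6 with -0.36. Members' differences stand among these differences of other lists, and the part of tissue makeup in them was not tested.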

How the data were processed

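RNA of 56 front paws was prepared with a TruSeq Stranded mRNA kit and sequenced in pairs on a NovaSeq, per the labels' protocols. The authors deposited 1 table of FPKM, a unit read from its values. DESeq2 is named without version in the submitters' processing notes. The sources used here do not name the aligner, build, annotation or strand setting, so reads of overlapping or antisense genes cannot be told apart. Symbols matched 52207 of 52244 Ensembl IDs, and coordinates are GENCODE M21 (GRCm38) where versioned IDs matched. That of Mzb1 did not. limma 3.58.1 (R 4.3.3, trended and robust prior) fitted all 56 libraries with 51 residual degrees of freedom, two-sided. The planned edgeR test for counts did not apply, since the file holds FPKM. On simulated data, a log2 change of 1 was recovered for 89% of 100 genes (isotype minus no CIA, 14677 genes) and 95% (anti-TNF minus isotype, 14707 genes). Those genes were drawn at random from all tested features, whose median within-group SD was 0.22. Tested members had SDs of 0.54 to 1.57, so these shares do not apply to them. No libraries held identical values.

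Members, though picked by symbol, and gene lists were chosen with earlier results of these data known. Named genes are the members, all immunoglobulin constant genes, the 4 genes per list with the smallest p in the mean of the immunised groups minus no CIA, and the 5 nearest genes of Jchain and Cd79a. Of each list, only some are printed. A gene near Cd79a is not reported here. Marker correlations and the leave-out of combination replicate 6 were chosen after seeing the data. Alternatives were pseudocounts 0.1 and 10, no filter, compared groups only, index run, median-of-ratios scaling, mice 2 and 20 left out, and each library left out. Replicates are numbered by accession.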

Additional observations from a re-analysis of the deposited data

Results flagged for a closer look

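Among the 4 no CIA libraries, Jchain had 1 value far from the rest. Replicate 4 had 8.04 FPKM, and the others had 1.44, 1.72 and 2.42. Its Igkc (62.8) and Cd79a (2.29) were also the highest of the group. Without it the mean difference of Jchain between the 4 immunised groups and no CIA was 0.77 in place of 0.36 (log2). Chance alone would mark about 1 in 20 such groups for a single gene with normally distributed values. The flag was set on FPKM, not on the log2 scale of the tests, and several genes were read. The chance rate for these data was not tested and may be higher.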

How the results depend on the processing

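The count of members called stayed at 0 in all 12 comparisons under each of the 62 or 63 alternatives run per comparison, and the smallest adjusted p over any of them was 0.117 (anti-TNF minus no CIA, without anti-TNF replicate 7). All 36 pairs remained correlated under the 4 alternatives. Isotype minus no CIA, which had no called member, changed sign for Jchain (0.01) to -0.0368 with pseudocount 0.1, -0.27 with the index run as covariate and -0.0369 with median-of-ratios scaling, and with the index run also for Igkc (0.26 to -0.0483) and Mzb1 (0.05 to -0.0190); the cause was not tested. Leaving out 1 library at a time gave ranges that include 0 in that comparison for Ighm (-0.0759 to 0.38), Jchain (-0.20 to 0.43), Mzb1 (-0.0160 to 0.12) and Cd79a (-0.13 to 0.29), and in the mean of the immunised groups minus no CIA for Ighm (-0.0759 to 0.38). The Ighg1 difference in that mean ranged from 0.45 (pseudocount 10) to 1.77 (pseudocount 0.1), and that of Ighg2b from 0.21 to 1.31 under the same settings. All 4 no CIA libraries share an index run with 2 isotype libraries only. No paired analysis was possible because replicates are numbered by accession, which pairs no animals. Depth limits low genes such as Ms4a1 and Ighe, and with no filter the Ms4a1 difference was 0.08 (adjusted p = 0.922 by limma).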
